A study of Mus musculus with 19 samples.

Results

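The genes described here are the axon guidance ligands and receptors of mouse hippocampal neurons: the netrins, the netrin receptors Dcc and Unc5a to Unc5d, the Slits and their Robo receptors, the semaphorins of classes 3 to 7, the neuropilins and plexins that receive them, and the ephrins and Eph receptors. They were picked by a rule on gene names, set with earlier results of these data known. Of the 24058 gene names in the expression files, 69 belong to these families. The 69 comprise 20 semaphorins, 9 plexins, 2 neuropilins, 14 Eph receptors, 8 ephrins, 3 Slits, 4 Robo receptors, 4 netrins and 5 netrin receptors, so that 35 are ligands and 34 are receptors. Of these, 64 reached 1 RPKM (reads scaled by gene length and library size) in at least 3 of the 9 RNA libraries and were tested among the 14801 genes that did so. The 5 others were Robo4, Sema3g, Epha1, Plxnb3 and Ephb4, whose highest group means were 0.238, 0.281, 0.174, 0.736 and 0.827 RPKM. Robo3 and Ntn5 reached 1 RPKM only in the untreated libraries and Epha2 only in the TTX libraries, so these 3 genes entered the test through the group in which they were high. Sema3b and Efna4 reached 1 RPKM in 5 libraries each but would not have passed without the untreated and the TTX libraries, respectively.

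Neurons from the hippocampus of ICR mice at embryonic day 17 were grown for 10 days in culture. One group was left without treatment. A second was given tetrodotoxin (TTX), which blocks voltage-gated sodium channels and so silences firing; the sources used here do not give for how long. The third was excited for 3 h with bicuculline, which blocks GABA-A receptors, and 4-aminopyridine, a potassium channel blocker (Bic/4AP). The RNA was sequenced in 3 libraries of each group, and the acetylated histone H3K27ac, a mark of active promoters and enhancers, was mapped in 2 untreated and 2 Bic/4AP samples of the same strain. H3K4me1, a mark of enhancers, was mapped in 2 untreated samples, and CpG methylation in 1 library per treatment from C57BL/6 mice. The labels do not tell whether libraries of one group are from separate cultures; the p-values therefore cover only library-to-library spread, which may be technical.

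Guidance ligands are secreted or membrane-bound proteins that attract or repel growth cones through receptors on the axon. Netrins attract through DCC and repel through UNC5 receptors, Slits repel through Robo receptors, class 3 semaphorins bind neuropilins that signal through plexins, and ephrins bind Eph receptor tyrosine kinases on contact between cells. In the hippocampus the same families take part in laying out axon layers, in pruning, and later in the formation of spines and synapses.

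The RNA libraries held 5.63, 9.97 and 5.74 M reads untreated, 12.6, 11.9 and 9.68 M with TTX, and 4.52, 4.59 and 4.34 M with Bic/4AP, as recovered from the steps of the RPKM values. Neuron markers were present in every library, with a summed level of 923 to 1089.7 RPKM untreated, 879 to 976 with TTX and 1527 to 1564 with Bic/4AP over 14 genes. All 18 choroid plexus markers were lower in both treatments than untreated, and their summed level was 570.2 to 852 RPKM untreated, 25.7 to 33.8 with TTX and 42.4 to 47.9 with Bic/4AP; the choroid markers Tmem72 and Kcnj13 were listed at 0 in 2 and 1 of the TTX libraries. RNAs without poly(A) tails were likewise high in the untreated libraries alone, with a sum of 892 to 1410.3 RPKM untreated, 66 to 86.8 with TTX and 80.1 to 114 with Bic/4AP over 12 genes, of which 11 were lower in each treatment. The part of either difference in the results below was not tested. The median of all genes tested moved by -0.12 in Bic/4AP minus untreated, 0.13 in TTX minus untreated and -0.33 in Bic/4AP minus TTX on the log2(RPKM + 1) scale. For that reason each log2 difference below is given relative to the median gene of its comparison, and is called a relative log2 difference. Folds given for single genes are instead ratios of group mean RPKM, unshifted and without the added 1. They therefore need not match the relative log2 difference beside them. The test itself was made on the unshifted values, and calls against untreated that change under quantile or cyclic loess normalization are given with the gene. Of the 64 genes, 19, 19 and 18 had another call under at least 1 of these 2 scalings in the 3 comparisons, in the order just given. The comparisons of TTX and of Bic/4AP with untreated neurons share the 3 untreated libraries, so their values are set side by side and no likeness is read from them.

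The starts of 4 members are shown because methylation was measured there and because they differ in the number of CpG sites. The 250 bases before the RefSeq start (build GRCm38.p6) are printed 5′ to 3′ on the gene's own strand, with each CpG in capitals. Sema3a lies at chr5:13396534-13396783 (plus strand), Ntn5 at chr7:45683772-45684021 (plus strand), Efnb2 at chr8:8661243-8661492 (minus strand) and Ephb2 at chr4:136836013-136836262 (minus strand). The Sema3a start, the only one in the reference used, lies inside the annotated span of the gene (chr5:13124822-13603485) and not at its 5′ end.
Sema3a: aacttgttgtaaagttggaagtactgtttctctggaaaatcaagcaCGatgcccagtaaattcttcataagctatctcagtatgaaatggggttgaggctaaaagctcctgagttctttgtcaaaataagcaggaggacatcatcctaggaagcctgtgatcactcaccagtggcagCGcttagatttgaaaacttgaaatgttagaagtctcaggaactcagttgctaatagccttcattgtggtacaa
Ntn5: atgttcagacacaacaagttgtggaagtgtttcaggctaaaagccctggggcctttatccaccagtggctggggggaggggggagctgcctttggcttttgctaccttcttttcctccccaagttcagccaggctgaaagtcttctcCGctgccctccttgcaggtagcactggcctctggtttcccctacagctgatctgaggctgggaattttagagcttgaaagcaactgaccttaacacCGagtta
Efnb2: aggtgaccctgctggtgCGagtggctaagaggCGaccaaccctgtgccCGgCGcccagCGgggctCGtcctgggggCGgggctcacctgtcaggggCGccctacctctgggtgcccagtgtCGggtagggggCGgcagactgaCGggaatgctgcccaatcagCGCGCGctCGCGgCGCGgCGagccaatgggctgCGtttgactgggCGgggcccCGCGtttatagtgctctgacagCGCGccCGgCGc
Ephb2: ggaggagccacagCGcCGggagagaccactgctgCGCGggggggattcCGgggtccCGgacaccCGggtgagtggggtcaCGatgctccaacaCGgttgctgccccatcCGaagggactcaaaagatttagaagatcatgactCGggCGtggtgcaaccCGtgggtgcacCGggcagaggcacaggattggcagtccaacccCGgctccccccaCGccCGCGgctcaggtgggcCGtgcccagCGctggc
The windows of Sema3a and Ntn5 held 2 CpGs each, and those of Efnb2 and Ephb2 held 27 and 20. Their methylation stands with the other starts near the end.

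Set against untreated neurons, 3 h of Bic/4AP left 17 of the 64 guidance genes higher, 32 lower and 15 without a call (limma, Benjamini-Hochberg adjusted p of 0.05 over all genes tested). Among all genes tested, 29.6% were higher and 42.5% lower, so the guidance genes were called at about the rate of the transcriptome, with 26.6% higher and 50% lower. With quantile normalization the split became 23 higher and 27 lower, and with cyclic loess 22 and 27; 14 were higher and 26 lower under all 3 scalings, against 21.6% and 27.8% of all genes. Past 2-fold on the log2(RPKM + 1) scale, 1 was higher and 18 were lower, against 3.31% and 17.7% of all genes. The median relative log2 difference of the 64 was -0.23.

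TTX against untreated gave 26 higher, 18 lower and 20 without a call, against a background of 40.6% higher and 23.5% lower. That split turned over with the scaling, to 21 higher and 25 lower with quantile normalization and to 16 and 24 with cyclic loess; 16 and 18 held under all 3 scalings, against 28.7% and 21.8% of all genes. The median relative log2 difference was -0.014, and 8 genes were higher and 5 lower past 2-fold, against 6.09% and 6.58%. Bic/4AP against TTX, the comparison of excited with silenced neurons, gave 16 higher, 36 lower and 12 without a call, against 23.7% and 53.1% of all genes. Quantile normalization gave 23 higher and 28 lower there and cyclic loess 21 and 28; the median relative log2 difference was -0.33, and 21 genes were lower and 0 higher past 2-fold, against 20.4% and 3.74% of all genes. Libraries of the groups compared did not overlap for 50, 48 and 54 of the 64 genes in the 3 comparisons, against 71.3%, 69.6% and 81.5% of all genes. Those lying higher without overlap numbered 16, 29 and 17, beside 28.6%, 43.5% and 25.6% of all genes, and those lying lower 34, 19 and 37, beside 42.7%, 26.1% and 55.9%.

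**Figure D1:**
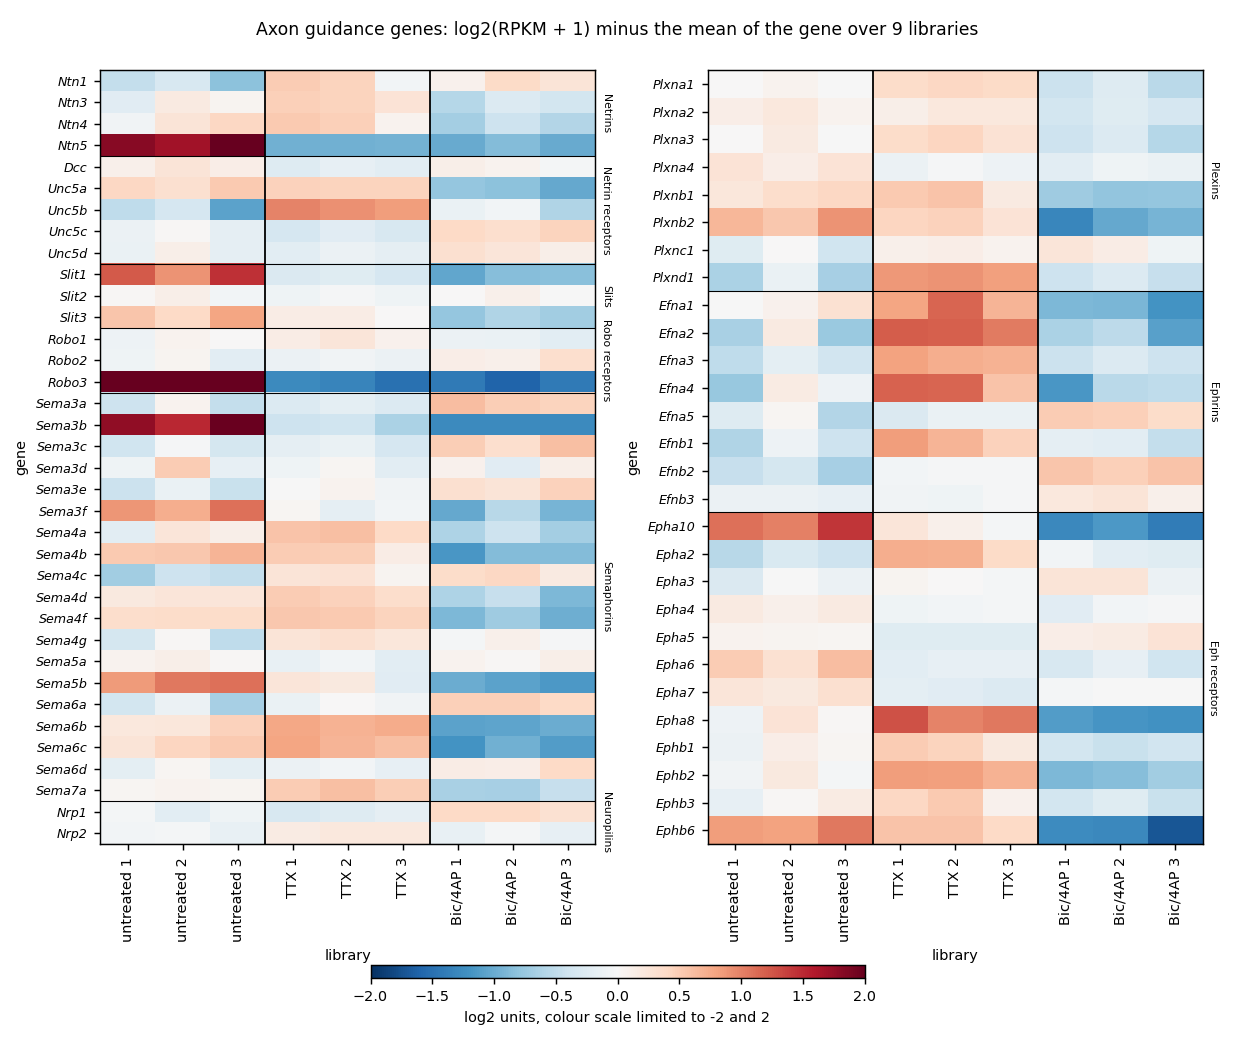
Each row is 1 of the 64 tested guidance genes and each column 1 library; colour gives log2(RPKM + 1) minus the gene's mean over the 9 libraries, limited to -2 and 2. Robo3, Ntn5 and Sema3b are dark red in the 3 untreated libraries only, most ephrins are red in the 3 TTX libraries, and Efnb2, Nrp1 and Sema3a are red in the 3 Bic/4AP libraries.

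Ligands and receptors were spread over both directions. With Bic/4AP, 11 of 34 ligands were higher and 16 lower than untreated, and 6 of 30 receptors were higher and 16 lower; the median relative log2 differences were -0.25 and -0.19. Among all genes 29.6% were higher and 42.5% lower with Bic/4AP, and 40.6% and 23.5% with TTX. TTX left 16 ligands higher and 7 lower, but 13 and 11 with quantile normalization and 9 and 11 with cyclic loess. With TTX 10 receptors were higher and 11 lower. Of the families, ephrins stood mostly higher with TTX, plexins and Eph receptors mostly lower with Bic/4AP, and Slits mostly lower with both, as the following paragraphs set out.

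Netrins were the lowest family of ligands. Ntn1, the founding netrin, which attracts commissural axons, was at 1.02, 1.24 and 0.577 RPKM untreated, 2.99, 2.81 and 1.69 with TTX and 1.96, 2.66 and 2.33 with Bic/4AP. The untreated libraries lay below both treatments, and Ntn1 rose with Bic/4AP (relative log2 difference 0.90, SE 0.19, limma adjusted p = 0.00318) and with TTX (0.71, SE 0.19, limma adjusted p = 0.0025). Ntn4, a netrin of basement membranes, was at 3.61, 4.78 and 5.42 RPKM untreated, 5.94, 5.7 and 4.07 with TTX and 2.02, 2.62 and 2.2 with Bic/4AP. Its Bic/4AP libraries were the lowest and did not overlap with the others, yet the difference from untreated (-0.64, limma adjusted p = 0.00188) and that from TTX (-0.59, limma adjusted p = 0.000442) passed on the deposited scale only and not under either other scaling. Ntn3 was at 3.35 ± 0.615 RPKM untreated, 4.67 ± 0.414 with TTX and 2.28 ± 0.349 with Bic/4AP (SD, n = 3); its call as lower with Bic/4AP (-0.28, limma adjusted p = 0.0345) was also lost under both other scalings and without untreated library 2 or 3 or TTX library 2 or Bic/4AP library 1 or 3, adjusted p from 0.0551 to 0.13. Its call as higher with TTX (0.26, limma adjusted p = 0.0458) was lost with cyclic loess and without untreated library 1 or 3 or TTX library 1 or 2 or Bic/4AP library 1, 2 or 3, adjusted p from 0.05 to 0.169. The annotated span of Ntn3 overlaps that of Tbc1d24 by 1732 bases. Tbc1d24 was at 26.5, 27.1 and 25.5 RPKM untreated, 26.6, 27.2 and 27.6 with TTX and 29.6, 30.2 and 27.8 with Bic/4AP. Whether its reads were counted for Ntn3 cannot be told, as the use of strand in counting is not given.

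Ntn5, a further secreted netrin, was almost confined to the untreated libraries. It was at 6.11, 5.42 and 8.48 RPKM untreated, 0.0353, 0.0377 and 0.0462 with TTX and 0, 0.0973 and 0 with Bic/4AP, and its read counts were 77, 121 and 109 untreated, 1, 1 and 1 with TTX, and 0, 1 and 0 with Bic/4AP. Every treated library held 0 or 1 read, and Ntn5 was lower with Bic/4AP (relative log2 difference -2.75, SE 0.16, limma adjusted p = 2.6e-08) and with TTX (-2.99, SE 0.16, limma adjusted p = 1.5e-07). Ntn5 passed the filter through the untreated libraries alone, so the p-values give no support beyond the values themselves. The annotated span of Ntn5, 10.535 kb long, overlaps that of Sec1, a fucosyltransferase gene, by 10381 bases. Sec1 was at 5.46, 5.17 and 7.64 RPKM untreated, 0.0265, 0.0282 and 0.0691 with TTX and 0.0739, 0 and 0 with Bic/4AP. The sources used here do not say whether counting used the strand, so reads of the overlapping genes cannot be told apart. The 3 libraries with Ntn5 reads are those with high choroid plexus markers and high RNAs without poly(A) tails; in bulk RNA, fewer cells of a type and less RNA per cell cannot be told apart.

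Of the netrin receptors, Unc5a fell with Bic/4AP, Unc5c and Unc5d rose with it, Unc5b rose with TTX, and Dcc fell with TTX. Dcc, which mediates attraction to netrin-1, was at 27.3, 30.7 and 27.9 RPKM untreated, 21.2, 22.6 and 21.8 with TTX and 27.8, 26.7 and 24.6 with Bic/4AP. The TTX libraries were the lowest and overlapped with neither other group, and Dcc was lower with TTX than untreated (relative log2 difference -0.50, SE 0.064, limma adjusted p = 0.000341) and lower than with Bic/4AP; with Bic/4AP against untreated the groups overlapped (0.0078, limma adjusted p = 0.125). The 4 UNC5 receptors mediate repulsion and can also trigger death of cells that lack netrin.

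Unc5a was at 31.3, 29 and 33.7 RPKM untreated, 32.4, 32.1 and 32.1 with TTX and 13.1, 12.8 and 10.8 with Bic/4AP. The Bic/4AP libraries lay apart, 2.56-fold below the untreated mean (-1.17, SE 0.075, limma adjusted p = 3.56e-08), while TTX and untreated libraries overlapped (-0.089, limma adjusted p = 0.649). Unc5b, best known from blood vessels, was at 2.93, 3.43 and 1.66 RPKM untreated, 10.1, 9.55 and 9 with TTX and 4.11, 4.42 and 2.71 with Bic/4AP. All TTX libraries lay above all others, 3.57-fold above the untreated mean (1.42, SE 0.20, limma adjusted p = 4.85e-05). Bic/4AP against untreated gave 0.50, limma adjusted p = 0.11 for Unc5b, a difference that passed under the other 2 scalings and without untreated library 2 or Bic/4AP library 3, adjusted p from 0.0326 to 0.0339. Endothelial and mural markers summed to 20.6 to 26.4 RPKM untreated, 25.6 to 31 with TTX and 19.1 to 27.6 with Bic/4AP over 10 genes, with Cldn5 listed at 0 in all Bic/4AP libraries. Of the 5 tested, 3 were higher with TTX than untreated and 0 lower, with Pdgfrb at 2.36, 2.65 and 1.64 RPKM untreated, 6.93, 7.12 and 5.23 with TTX and 2.37, 2.37 and 1.32 with Bic/4AP. Rgs5, the largest part of the untreated sum, was at 9.52, 11.8 and 12 RPKM untreated, 8.57, 7.97 and 7.37 with TTX and 14.4, 13.2 and 7.9 with Bic/4AP. Their part in the Unc5b values was not tested.

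Unc5c was at 26.4, 29 and 25.1 RPKM untreated, 22.4, 24.2 and 22.7 with TTX and 38.2, 36.5 and 39.2 with Bic/4AP. Its groups followed the order Bic/4AP, untreated, TTX without overlap, with a rise with Bic/4AP (0.61, SE 0.063, limma adjusted p = 2.22e-05) and a call as lower with TTX (-0.33, limma adjusted p = 0.0131) that was lost without TTX library 1, adjusted p = 0.0554. Unc5d, which also binds the FLRT adhesion proteins, was at 23.2, 27.8 and 22.3 RPKM untreated, 21.8, 23.3 and 22.4 with TTX and 32.2, 30.4 and 27.8 with Bic/4AP. The Bic/4AP libraries were the highest, and Unc5d rose against untreated (0.42, SE 0.082, limma adjusted p = 0.00628) and against TTX (0.74, SE 0.082, limma adjusted p = 0.000688), with no call on the deposited scale for TTX against untreated (-0.24, limma adjusted p = 0.259) but one as lower under both other scalings.

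**Figure D2:**
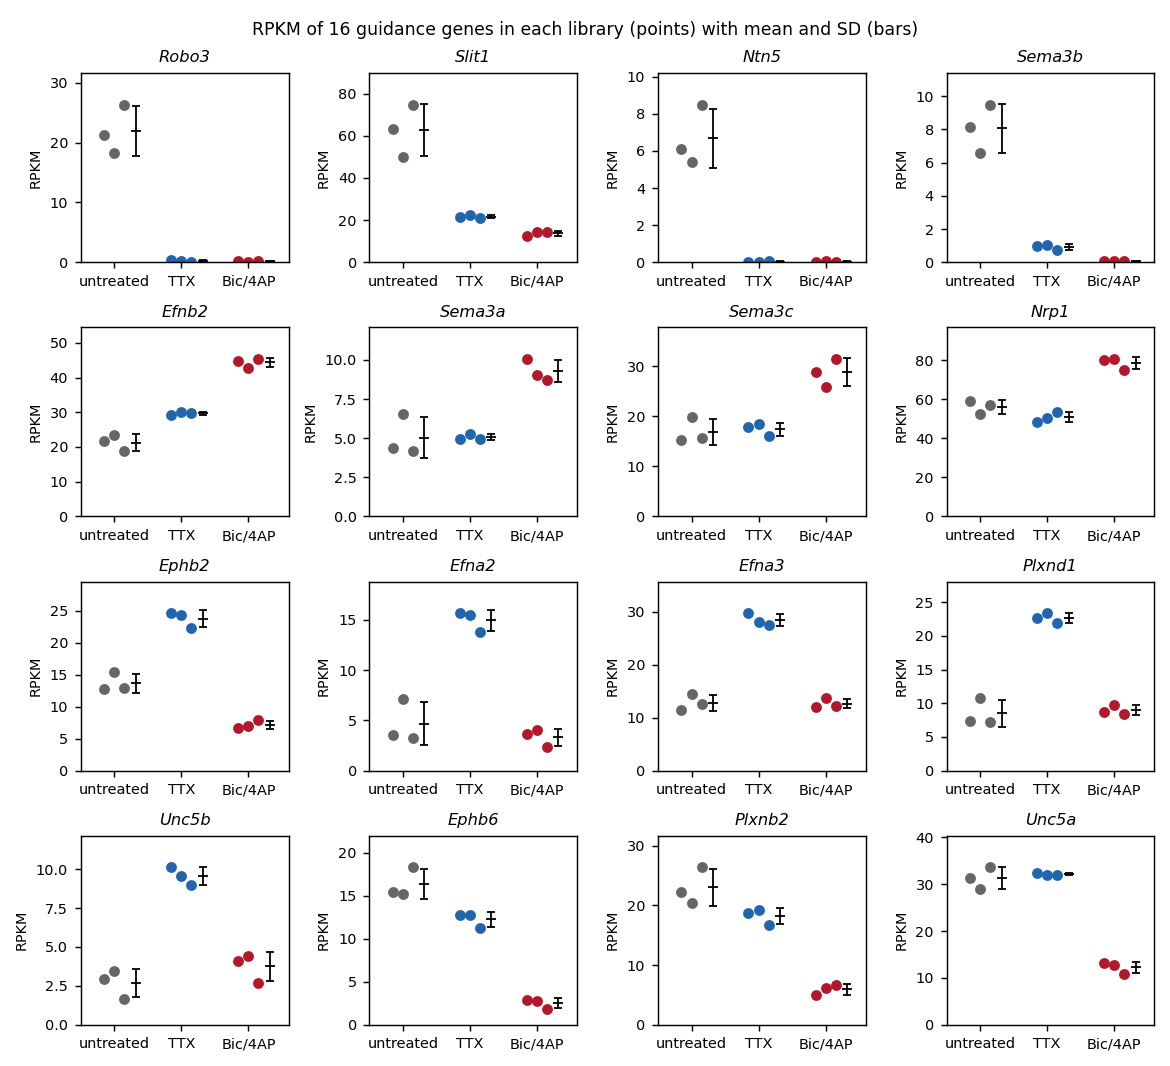
RPKM of 16 guidance genes in each library, with 1 point per library and bars for the mean and SD of the 3 libraries of a group; each axis starts at 0 and has its own scale. Robo3 and Ntn5 are near 0 in all 6 treated libraries, Efnb2, Sema3a, Sema3c and Nrp1 are highest with Bic/4AP, and Ephb2, Efna2, Efna3, Plxnd1 and Unc5b are highest with TTX.

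The Slit family was led by Slit1 in untreated neurons, and Slit1 and Slit3 fell with both treatments. Summed over the 3 genes, Slits stood at 103 to 134 RPKM untreated, 63.6 to 68.5 with TTX and 47.4 to 52.8 with Bic/4AP. Slit1, a repellent made mostly in the nervous system, was at 63.3, 50.1 and 74.7 RPKM untreated, 21.6, 22.4 and 20.8 with TTX and 12.4, 14.3 and 14.3 with Bic/4AP. The 3 groups did not overlap, and Slit1 was 4.58-fold below the untreated mean with Bic/4AP (-1.98, SE 0.11, limma adjusted p = 2.32e-08) and 2.91-fold below it with TTX (-1.61, SE 0.11, limma adjusted p = 1.35e-06). Slit3 was at 31.3, 28.1 and 37 RPKM untreated, 23.3, 23.4 and 21.2 with TTX and 11.9, 13.6 and 12.6 with Bic/4AP. The groups kept the same order without overlap, and Slit3 fell with Bic/4AP (-1.15, SE 0.092, limma adjusted p = 1.79e-07) and with TTX (-0.61, SE 0.092, limma adjusted p = 0.000726). Slit2, in contrast, was at 23.5, 25 and 22.1 RPKM untreated, 21.5, 22.7 and 21.6 with TTX and 23.1, 24.9 and 23 with Bic/4AP. Its groups overlapped in both comparisons with untreated, with a relative log2 difference of 0.13, limma adjusted p = 0.915 with Bic/4AP and -0.22, limma adjusted p = 0.2 with TTX, the latter lower and past the threshold under both other scalings.

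Among the receptors of the Slits, Robo3 had the largest difference from untreated of all guidance genes on the log2(RPKM + 1) scale, and Robo1 and Robo2 had small ones. Robo3, a divergent member that lets commissural axons approach the midline and in mammals does not bind Slits strongly, was at 21.3, 18.2 and 26.3 RPKM untreated, 0.318, 0.268 and 0.131 with TTX and 0.187, 0.0461 and 0.195 with Bic/4AP. Its read counts were 567, 858 and 714 untreated, 19, 15 and 6 with TTX, and 4, 1 and 4 with Bic/4AP. Untreated libraries stood far above the rest, with relative log2 differences of -4.19, SE 0.16, limma adjusted p = 3.58e-09 with Bic/4AP and -4.33, SE 0.16, limma adjusted p = 9.27e-09 with TTX. Robo3 passed the filter through the untreated libraries alone, so the p-values give no support beyond the values themselves. Choroid plexus markers were high in the same 3 libraries; whether they bear on Robo3 was not tested.

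Robo1 was at 14.4, 16.3 and 15.6 RPKM untreated, 17.4, 18.6 and 16.5 with TTX and 14.3, 14.1 and 13.3 with Bic/4AP. Its groups did not overlap, but against untreated neither Bic/4AP (-0.016, limma adjusted p = 0.11) nor TTX (0.040, limma adjusted p = 0.0614) passed on the deposited scale, while both other scalings called Robo1 higher with Bic/4AP. Without untreated library 2 the TTX difference did (adjusted p = 0.0257). Bic/4AP against TTX was called lower for Robo1 on the deposited scale (0.024, limma adjusted p = 0.00225) and higher under both other scalings, so its direction depends on the scaling. Robo2, the other main Slit receptor of forebrain axons, was at 23.6, 26 and 21.5 RPKM untreated, 23.1, 23.8 and 23 with TTX and 27.5, 27 and 32.2 with Bic/4AP. The Bic/4AP libraries lay above the others, and Robo2 rose against untreated (0.40, SE 0.080, limma adjusted p = 0.00793) and against TTX (0.63, SE 0.080, limma adjusted p = 0.00505). TTX against untreated gave -0.15, limma adjusted p = 0.858, called lower under both other scalings. Robo4, a receptor of blood vessels, was at 0.238 ± 0.0804 RPKM untreated, 0.0305 ± 0.0528 with TTX and 0.02 ± 0.0346 with Bic/4AP and was not tested.

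Semaphorins moved in both directions with Bic/4AP. Of 19 tested, 7 rose and 10 fell (36.8% and 52.6%, beside 29.6% and 42.5% of all genes), with 7 and 9 under all 3 scalings and an even 9 and 9 with quantile normalization. With TTX 8 were higher and 4 lower (42.1% and 21.1%, beside 40.6% and 23.5%), of which 2 and 4 held under all scalings, so that most TTX calls as higher in this family depend on the scaling. The 20 semaphorins summed to 217 to 248.7 RPKM untreated, 245 to 267 with TTX and 208 to 214 with Bic/4AP.

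The secreted class 3 divided as well. Sema3a, the best known repellent of hippocampal and cortical axons, was at 4.38, 6.55 and 4.16 RPKM untreated, 4.96, 5.29 and 4.96 with TTX and 10.1, 9.06 and 8.73 with Bic/4AP. All Bic/4AP libraries lay above all others, and Sema3a rose against untreated (relative log2 difference 0.91, SE 0.15, limma adjusted p = 0.000515) and against TTX (1.09, SE 0.15, limma adjusted p = 0.000611). TTX and untreated libraries overlapped (-0.099, limma adjusted p = 0.868), and cyclic loess called Sema3a lower with TTX. Sema3c, at 16.9 ± 2.63 RPKM untreated, 17.4 ± 1.26 with TTX and 28.8 ± 2.78 with Bic/4AP, and Sema3e, at 10.8 ± 1.48 RPKM untreated, 13.8 ± 0.775 with TTX and 17.9 ± 1.32 with Bic/4AP, were likewise higher with Bic/4AP than untreated (0.86, limma adjusted p = 4.4e-05 and 0.81, limma adjusted p = 5.13e-05). Quantile normalization called Sema3c lower with TTX. Sema3e, a ligand that binds plexin D1 directly, also had a call as higher with TTX (0.21, limma adjusted p = 0.00962) that neither other scaling kept. Sema3d was at 3.11 ± 1.11 RPKM untreated, 2.56 ± 0.324 with TTX and 2.79 ± 0.478 with Bic/4AP, with no call in any comparison on the deposited scale and one as higher with Bic/4AP than untreated under quantile normalization.

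Sema3b and Sema3f lay on the opposite side. Sema3b was at 8.12, 6.56 and 9.48 RPKM untreated, 1, 1.03 and 0.727 with TTX and 0.104, 0.102 and 0.108 with Bic/4AP. The 3 groups did not overlap, and Sema3b fell with Bic/4AP (-2.90, SE 0.16, limma adjusted p = 1.58e-08) and with TTX (-2.36, SE 0.16, limma adjusted p = 6.59e-07). Sema3b would not have passed the filter without the untreated libraries, so the p-values give no support beyond the values themselves. Sema3f, which prunes hippocampal mossy fibres through neuropilin 2 and plexin A3, was at 3.98, 3.46 and 4.78 RPKM untreated, 1.77, 1.37 and 1.58 with TTX and 0.326, 0.835 and 0.408 with Bic/4AP. It was highest untreated and fell with Bic/4AP (-1.62, SE 0.17, limma adjusted p = 2.03e-06) and with TTX (-1.10, SE 0.17, limma adjusted p = 0.000367). Both genes follow the order of the choroid plexus markers between untreated and treated libraries, and the part of those cells was not tested. Sema3g was at 0.281 ± 0.00865 RPKM untreated, 0.0689 ± 0.0434 with TTX and 0.0208 ± 0.0361 with Bic/4AP and was not tested.

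In the membrane-bound class 4, Sema4a, Sema4b, Sema4d and Sema4f were called lower with Bic/4AP and Sema4c and Sema4g higher. Among all genes 42.5% were lower and 29.6% higher. Sema4a was at 10.1, 14.2 and 12.8 RPKM untreated, 17.9, 18.3 and 15.8 with TTX and 7.3, 8.59 and 6.95 with Bic/4AP. Its groups followed the order TTX, untreated, Bic/4AP without overlap, but the call as lower with Bic/4AP (-0.50, limma adjusted p = 0.000608) was lost under both other scalings and that as higher with TTX (0.34, limma adjusted p = 0.00554) with cyclic loess. Sema4b, which is known from inhibitory and excitatory synapses of cultured rodent hippocampal neurons, was at 9.58, 9.71 and 10.8 RPKM untreated, 9.44, 9.38 and 7.15 with TTX and 2.3, 3.04 and 3.04 with Bic/4AP. It was lowest with Bic/4AP, 3.6-fold below the untreated mean (-1.42, SE 0.14, limma adjusted p = 1.17e-06), and its TTX libraries lay below the untreated ones without a call on the deposited scale (-0.33, limma adjusted p = 0.231) but called lower under both other scalings.

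Sema4d, which acts through plexin B1 and promotes inhibitory synapses in rodent hippocampus, was at 16.8, 17.5 and 17.5 RPKM untreated, 21.1, 20.4 and 18.8 with TTX and 9.19, 10.4 and 7.35 with Bic/4AP. Bic/4AP libraries were lowest and Sema4d fell against untreated (-0.76, SE 0.10, limma adjusted p = 9.24e-06); its TTX libraries were all above the untreated ones, without a call (0.078, limma adjusted p = 0.0957) except without Bic/4AP library 3, adjusted p = 0.0275. Sema4f was at 15, 15.2 and 15.3 RPKM untreated, 17.2, 17 and 16.1 with TTX and 5.73, 6.69 and 5.38 with Bic/4AP. The same order held, with a fall with Bic/4AP (-1.10, SE 0.089, limma adjusted p = 1.81e-07) and no call with TTX (0.008, limma adjusted p = 0.191). Sema4c, a ligand of plexin B2, and Sema4g went the other way. Sema4c was at 2.75, 3.58 and 3.39 RPKM untreated, 6.32, 6.45 and 5.32 with TTX and 6.85, 7.15 and 5.93 with Bic/4AP. The untreated libraries were lowest, and Sema4c rose with Bic/4AP (0.98, SE 0.14, limma adjusted p = 0.000144) and with TTX (0.60, SE 0.14, limma adjusted p = 0.000669). Sema4g was at 19.1 ± 3.91 RPKM untreated, 28.1 ± 1.02 with TTX and 23.5 ± 1.35 with Bic/4AP, higher with TTX (0.42, limma adjusted p = 0.00092) and called higher with Bic/4AP (0.42, limma adjusted p = 0.0269), the latter lost without untreated library 1 or 3 or Bic/4AP library 2, adjusted p from 0.0851 to 0.114.

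Within class 5, Sema5b was at 6.47, 7.53 and 7.84 RPKM untreated, 3.89, 3.7 and 2.54 with TTX and 1.07, 0.956 and 0.86 with Bic/4AP. Its groups did not overlap, and it fell with Bic/4AP (-1.95, SE 0.16, limma adjusted p = 2.92e-07) and with TTX (-1.06, SE 0.16, limma adjusted p = 0.000335). Sema5a was at 14 ± 0.506 RPKM untreated, 11.9 ± 0.704 with TTX and 14 ± 0.519 with Bic/4AP; it was called lower with TTX (-0.34, limma adjusted p = 0.0265), a call lost without untreated library 1 or TTX library 1 or 3, adjusted p from 0.061 to 0.0971. Both other scalings called it higher with Bic/4AP than untreated.

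Class 6 semaphorins, which are membrane proteins, divided in pairs. Sema6a had the highest mean of the family, at 20.5, 24.6 and 16.3 RPKM untreated, 24.2, 26.6 and 25.3 with TTX and 37.3, 37.4 and 35.4 with Bic/4AP. It rose with Bic/4AP, whose libraries lay above all others (0.95, SE 0.11, limma adjusted p = 2.63e-05), and its call as higher with TTX (0.18, limma adjusted p = 0.0245) was lost under both other scalings and without untreated library 1 or 3 or TTX library 2 or 3, adjusted p from 0.0511 to 0.0792. Sema6d was at 19.4 ± 1.93 RPKM untreated, 19.4 ± 0.831 with TTX and 24.9 ± 2.72 with Bic/4AP and also rose with Bic/4AP (0.47, limma adjusted p = 0.00349). Both other scalings called it lower with TTX. Sema6b was at 17, 17.1 and 20.5 RPKM untreated, 25.5, 24.1 and 24.9 with TTX and 6.39, 6.46 and 6.84 with Bic/4AP. Bic/4AP libraries were lowest, 2.77-fold below the untreated mean (-1.22, SE 0.082, limma adjusted p = 5.23e-08) and further below TTX (-1.44, SE 0.082, limma adjusted p = 1.22e-08). Its call as higher with TTX than untreated (0.30, limma adjusted p = 0.000675) was lost with cyclic loess. Sema6c was at 9.33, 10.6 and 11.4 RPKM untreated, 14, 12.9 and 12.2 with TTX and 2.8, 3.44 and 2.97 with Bic/4AP. It too fell with Bic/4AP (-1.37, SE 0.12, limma adjusted p = 3.37e-07), and its call as higher with TTX (0.17, limma adjusted p = 0.0424) was lost under both other scalings and without untreated library 1 or TTX library 1, 2 or 3, adjusted p from 0.0517 to 0.157. Sema7a, anchored to the membrane by a lipid and a ligand of plexin C1 and integrins, was at 15, 15.4 and 15.3 RPKM untreated, 21.3, 22.7 and 21 with TTX and 8.97, 8.91 and 10.3 with Bic/4AP. Its groups followed the order TTX, untreated, Bic/4AP without overlap; the fall with Bic/4AP (-0.52, SE 0.075, limma adjusted p = 9.93e-06) held under all 3 scalings, and the call as higher with TTX (0.35, limma adjusted p = 0.00018) was lost with cyclic loess.

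The neuropilins, which bind class 3 semaphorins and also VEGF, were among the most abundant guidance genes. Nrp1 had the highest mean of all 69, at 59, 52.3 and 57 RPKM untreated, 48.5, 50.6 and 53.5 with TTX and 80.3, 80.7 and 74.9 with Bic/4AP. Its Bic/4AP libraries were the highest and did not overlap with the others, and Nrp1 was higher than with TTX under all 3 scalings (0.95, SE 0.061, limma adjusted p = 1.95e-06). Against untreated the call as higher (0.60, limma adjusted p = 2.04e-05) was lost under both other scalings, and with TTX against untreated no call was made (-0.27, limma adjusted p = 0.0655) except as lower with quantile normalization and without untreated library 2 or TTX library 3, adjusted p from 0.013 to 0.0403. Nrp2, the receptor of Sema3f, was at 31.4, 32 and 29.6 RPKM untreated, 36.9, 38.1 and 38 with TTX and 29.4, 31.9 and 29.3 with Bic/4AP. The TTX libraries were the highest, and Nrp2 rose with TTX against untreated (0.14, SE 0.053, limma adjusted p = 0.000848), while with Bic/4AP it overlapped with untreated (0.086, limma adjusted p = 0.552), where cyclic loess called it lower. As a pair they summed to 84.3 to 90.4 RPKM untreated, 85.4 to 91.5 with TTX and 104 to 113 with Bic/4AP.

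Plexins, which turn semaphorin binding into loss of integrin adhesion and of actin filaments, mostly fell with Bic/4AP. Of 8 tested, 6 were lower and 1 higher, with 5 and 1 under all 3 scalings, beside 42.5% of all genes lower and 27.8% under all scalings. The difference from all genes was not tested. The family summed to 173 to 179 RPKM untreated, 189 to 201 with TTX and 121 to 135 with Bic/4AP. Plxna4 was at 40.7, 36.8 and 40.8 RPKM untreated, 31, 33.2 and 31.4 with TTX and 28.9, 31.8 and 30.5 with Bic/4AP. The untreated libraries were highest and overlapped with neither treatment, and Plxna4 fell with Bic/4AP (-0.24, SE 0.059, limma adjusted p = 0.000149) and with TTX (-0.43, SE 0.059, limma adjusted p = 0.000933). Plxna3, which receives Sema3f together with neuropilin 2, was at 13, 14.9 and 12.8 RPKM untreated, 17, 17.7 and 16 with TTX and 9.45, 10.6 and 8.4 with Bic/4AP. Its groups followed the order TTX, untreated, Bic/4AP without overlap, but both calls depended on the scaling: that as lower with Bic/4AP (-0.36, limma adjusted p = 0.000688) was lost under both others, and that as higher with TTX (0.17, limma adjusted p = 0.0159) was lost under both and without untreated library 1 or 3 or TTX library 2, adjusted p from 0.0507 to 0.0695. Plxna1, at 30.2 ± 0.872 RPKM untreated, 39.1 ± 0.671 with TTX and 22.2 ± 2.29 with Bic/4AP, and Plxna2, at 36 ± 1.8 RPKM untreated, 37.1 ± 1.28 with TTX and 26 ± 1.14 with Bic/4AP, fell with Bic/4AP under all 3 scalings (-0.31, limma adjusted p = 0.000105 and -0.33, limma adjusted p = 1.63e-05).

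Plxnb1 and Plxnb2 of class B also fell. Plxnb2, the receptor of Sema4c, was at 22.3, 20.4 and 26.4 RPKM untreated, 18.8, 19.2 and 16.6 with TTX and 4.91, 6.18 and 6.71 with Bic/4AP. Bic/4AP libraries lay 3.88-fold below the untreated mean (-1.67, SE 0.12, limma adjusted p = 8.74e-08), and the smaller difference with TTX (-0.45, limma adjusted p = 0.0329) lost its call without untreated library 1 or 3 or TTX library 1 or 3, adjusted p from 0.0585 to 0.141. Plxnb1, the receptor of Sema4d, was at 5.8, 6.35 and 6.73 RPKM untreated, 7.35, 7.57 and 5.56 with TTX and 2.52, 2.36 and 2.39 with Bic/4AP. It fell with Bic/4AP (-0.97, SE 0.14, limma adjusted p = 2.11e-05), with overlap between TTX and untreated (-0.036, limma adjusted p = 0.573). Plxnb3, with read counts of 18, 40 and 35 untreated, 0, 2 and 0 with TTX, and 0, 0 and 0 with Bic/4AP, was not tested.

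Plxnd1, the receptor of Sema3e and a gene of vessels as well as neurons, was at 7.43, 10.8 and 7.19 RPKM untreated, 22.7, 23.4 and 21.9 with TTX and 8.77, 9.75 and 8.44 with Bic/4AP. TTX libraries stood apart, 2.67-fold above the untreated mean (1.21, SE 0.13, limma adjusted p = 5.7e-06), and the groups of Bic/4AP and untreated overlapped (0.22, limma adjusted p = 0.532), with a call as higher under both other scalings and without untreated library 2, adjusted p = 0.0122. The endothelial and mural markers given with Unc5b apply here too, and their part was not tested. Plxnc1, which receives Sema7a, was at 17.3 ± 2.6 RPKM untreated, 21.6 ± 0.541 with TTX and 21.6 ± 2.49 with Bic/4AP; its call as higher with Bic/4AP (0.43, limma adjusted p = 0.0181) was lost without untreated library 1 or 3 or Bic/4AP library 1 or 2, adjusted p from 0.0521 to 0.0781, and that with TTX (0.18, limma adjusted p = 0.0191) under both other scalings and without untreated library 1 or 3 or TTX library 2, adjusted p from 0.0563 to 0.0796.

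**Figure D3:**
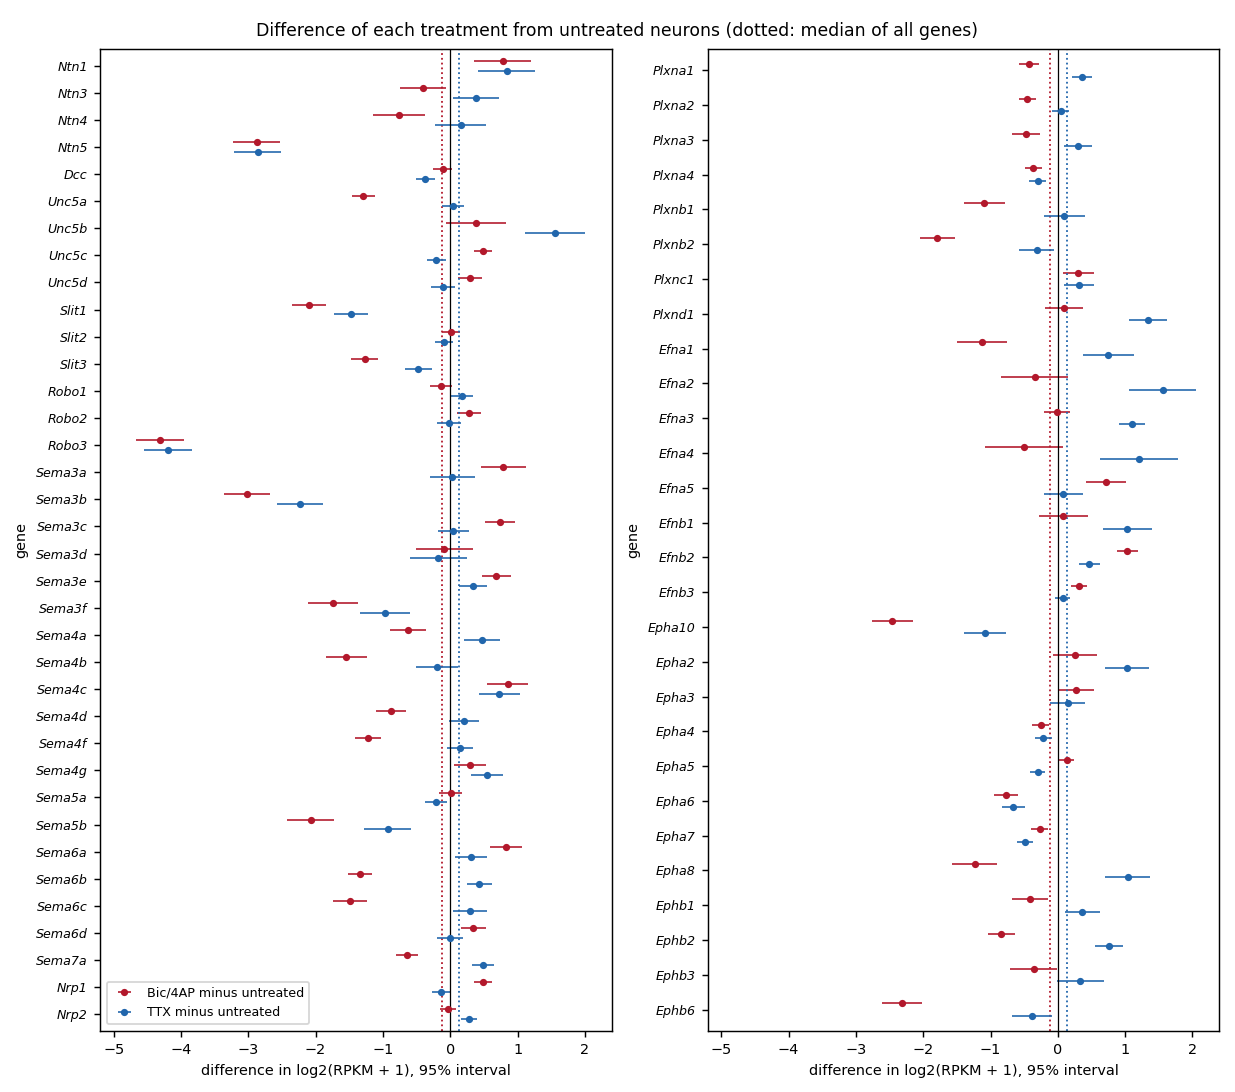
Difference of each treatment from untreated in log2(RPKM + 1) for the 64 tested guidance genes, with 95% intervals from limma; red points are Bic/4AP, blue points are TTX, and dotted lines mark the median of all genes in each comparison (-0.12 and 0.13). The 2 treatments lie on opposite sides of 0 for Epha8, Ephb2, Sema6b and Efna1, and both lie far below 0 for Robo3, Ntn5 and Sema3b.

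Ephrins were the family most often higher with TTX. Of the 8, 6 rose and 0 fell against untreated, in all 3 scalings, beside 40.6% of all genes on the deposited scale and 28.7% under all 3, and the median relative log2 difference was 0.76. Efna4, among the 6, would not have passed the filter without the TTX libraries. The family summed to 84 to 101 RPKM untreated, 133 to 139 with TTX and 122 to 129.7 with Bic/4AP, so the untreated libraries were lowest. With Bic/4AP against untreated 3 rose and 1 fell, with 2 and 1 under all 3 scalings, beside 29.6% and 42.5% of all genes. Against TTX 3 were higher and 5 lower, with 2 and 4 under all 3 scalings, beside 23.7% and 53.1% of all genes. These shares are on the deposited scale, and the differences from all genes were not tested. Glial markers were also higher with TTX. Astrocyte markers summed to 199 to 205 RPKM untreated, 237 to 257 with TTX and 287 to 334 with Bic/4AP over 10 genes, 6 of them higher with TTX than untreated and 1 lower. Markers of the oligodendrocyte lineage summed to 22.2 to 28.8 RPKM untreated, 42.7 to 52 with TTX and 21.6 to 28.4 with Bic/4AP over 8 genes, of which 6 were tested, 4 were higher with TTX and 2 lower, and Sox10 was listed at 0 in 2 of the TTX libraries and in all with Bic/4AP. The part of these cells in the ephrin values was not tested.

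In the A subfamily, which is held by a lipid anchor, Efna2 was at 3.58, 7.1 and 3.27 RPKM untreated, 15.7, 15.4 and 13.8 with TTX and 3.63, 3.99 and 2.38 with Bic/4AP. TTX libraries lay above all others, 3.22-fold above the untreated mean (1.43, SE 0.23, limma adjusted p = 0.000109), and untreated and Bic/4AP overlapped (-0.22, limma adjusted p = 0.197). Efna3 was at 11.4, 14.5 and 12.5 RPKM untreated, 29.8, 28.2 and 27.5 with TTX and 12.1, 13.7 and 12.2 with Bic/4AP. It showed the same separation, with a rise with TTX (0.97, SE 0.087, limma adjusted p = 1.61e-06) and overlap between Bic/4AP and untreated (0.11, limma adjusted p = 0.915), where both other scalings called it higher. Efna5, which sets up topographic maps, was at 9.65, 12.1 and 7.49 RPKM untreated, 9.47, 10.6 and 10.6 with TTX and 17.1, 16.7 and 15.4 with Bic/4AP. Here the Bic/4AP libraries lay above the rest, and Efna5 rose against untreated (0.84, SE 0.13, limma adjusted p = 0.000453) and against TTX (0.97, SE 0.13, limma adjusted p = 0.000975). Efna1 was at 1.87 ± 0.316 RPKM untreated, 3.87 ± 0.889 with TTX and 0.314 ± 0.15 with Bic/4AP, higher with TTX (0.62, limma adjusted p = 0.00236) and lower with Bic/4AP (-1.01, limma adjusted p = 8.5e-05). Efna4 was at 0.978 ± 0.595 RPKM untreated, 3.49 ± 1 with TTX and 0.375 ± 0.325 with Bic/4AP, higher with TTX (1.07, limma adjusted p = 0.0019) and without a call with Bic/4AP (-0.38, limma adjusted p = 0.105) except without untreated library 1, adjusted p = 0.0201. Without the TTX libraries Efna4 would not have passed the filter, so its p-value with TTX gives no support beyond the values themselves.

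In the membrane-spanning B subfamily, Efnb2, a ligand of EphB receptors and EphA4, was at 21.7, 23.4 and 18.7 RPKM untreated, 29.2, 29.9 and 29.9 with TTX and 44.8, 42.8 and 45.4 with Bic/4AP. The groups rose in the order untreated, TTX, Bic/4AP without overlap, and the rise with Bic/4AP was 2.08-fold (1.15, SE 0.071, limma adjusted p = 1.29e-07), against 1.39-fold with TTX (0.34, SE 0.071, limma adjusted p = 0.000151). It was the only guidance gene higher with Bic/4AP past 2-fold on the log2(RPKM + 1) scale. Efnb1 was at 2.61, 4.15 and 3.15 RPKM untreated, 8.86, 7.82 and 6.6 with TTX and 3.87, 3.74 and 2.97 with Bic/4AP. TTX libraries lay apart and Efnb1 rose with TTX (0.90, SE 0.17, limma adjusted p = 0.000236), whereas with Bic/4AP the groups overlapped (0.20, limma adjusted p = 0.678), with a call as higher under both other scalings. Efnb3, the most abundant ephrin and a cue that keeps corticospinal axons from recrossing, was at 36.6, 36.6 and 35.5 RPKM untreated, 38, 37.6 and 38.9 with TTX and 46.1, 47.8 and 42.5 with Bic/4AP. Bic/4AP libraries were the highest without overlap, but the call against untreated (0.44, limma adjusted p = 0.000177) was lost under both other scalings, and TTX gave no call (-0.058, limma adjusted p = 0.247).

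Eph receptors mostly fell with Bic/4AP. Of 12 tested, 8 were lower and 1 higher than untreated, with 6 and 0 under all 3 scalings, beside 42.5% of all genes lower and 27.8% under all scalings. With TTX 4 were higher and 6 lower, beside 40.6% and 23.5%, with 3 and 6 under all scalings. The differences from all genes were not tested. The 14 receptors summed to 222 to 239.96 RPKM untreated, 189.9 to 200.4 with TTX and 159 to 168 with Bic/4AP. The 2 with the largest falls with Bic/4AP, Epha10 and Ephb6, are the members whose kinase domain is known to be inactive. Epha10 was at 15.3, 14.2 and 19.3 RPKM untreated, 7.89, 7.07 and 6.37 with TTX and 2.09, 2.41 and 1.86 with Bic/4AP. Its groups followed the order untreated, TTX, Bic/4AP without overlap, with relative log2 differences of -2.34, SE 0.14, limma adjusted p = 3.16e-08 with Bic/4AP and -1.21, SE 0.14, limma adjusted p = 4.93e-05 with TTX. Ephb6 was at 15.4, 15.2 and 18.3 RPKM untreated, 12.7, 12.7 and 11.2 with TTX and 2.88, 2.78 and 1.84 with Bic/4AP. Bic/4AP libraries lay 6.52-fold below the untreated mean (-2.19, SE 0.14, limma adjusted p = 3.95e-08), and the smaller difference with TTX (-0.51, limma adjusted p = 0.0276) lost its call without untreated library 3 or TTX library 1, 2 or 3, adjusted p from 0.0524 to 0.112.

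Epha4, which binds ephrins of both subfamilies and shapes dendritic spines, was the most abundant Eph receptor, at 54, 51 and 54 RPKM untreated, 44.4, 45.7 and 46.4 with TTX and 40.5, 45.8 and 46.5 with Bic/4AP. Untreated libraries were the highest without overlap, and Epha4 was lower with Bic/4AP (-0.13, SE 0.059, limma adjusted p = 0.00195) and with TTX (-0.35, SE 0.059, limma adjusted p = 0.00684). Epha7 was at 25.1, 24.4 and 26.6 RPKM untreated, 18.2, 17.8 and 17.2 with TTX and 20.5, 21 and 21 with Bic/4AP. The untreated libraries were again highest, and it fell with TTX (-0.62, SE 0.057, limma adjusted p = 2.05e-05); the call as lower with Bic/4AP (-0.15, limma adjusted p = 0.000994) was lost with cyclic loess. Epha6, at 43.4 ± 4.69 RPKM untreated, 27 ± 0.571 with TTX and 24.9 ± 2.21 with Bic/4AP, fell with Bic/4AP (-0.65, limma adjusted p = 3.71e-06) and with TTX (-0.79, limma adjusted p = 3.02e-05). Epha5, at 37.5 ± 0.489 RPKM untreated, 30.2 ± 0.136 with TTX and 41.2 ± 2.28 with Bic/4AP, fell with TTX (-0.43, limma adjusted p = 0.000295), and its call as higher with Bic/4AP (0.26, limma adjusted p = 0.0329) turned to a value just below 0 without a call under both other scalings and was lost without untreated library 3 or TTX library 1 or 2 or Bic/4AP library 3, adjusted p from 0.0521 to 0.142.

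Epha8 was at 1.88, 2.77 and 2.14 RPKM untreated, 6.53, 5.14 and 5.42 with TTX and 0.422, 0.37 and 0.342 with Bic/4AP. The order was TTX, untreated, Bic/4AP without overlap, with a rise with TTX (0.91, SE 0.15, limma adjusted p = 0.000115) and a fall with Bic/4AP (-1.11, SE 0.15, limma adjusted p = 1.57e-05). Epha2, at 0.3 ± 0.114 RPKM untreated, 1.66 ± 0.345 with TTX and 0.547 ± 0.111 with Bic/4AP, rose with TTX (0.90, limma adjusted p = 9.61e-05) and was called higher with Bic/4AP under the 2 other scalings only. Epha2 passed the filter through the TTX libraries alone, so the p-value gives no support beyond the values themselves. Epha3, at 9.5 ± 1.03 RPKM untreated, 10.6 ± 0.385 with TTX and 11.7 ± 1.84 with Bic/4AP, had no call on the deposited scale in any comparison, and one as higher with Bic/4AP than untreated under both other scalings.

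Of the EphB receptors, which gather NMDA receptors at excitatory synapses, Ephb1 and Ephb2 were highest with TTX. Ephb2 was at 12.8, 15.4 and 12.9 RPKM untreated, 24.7, 24.4 and 22.3 with TTX and 6.73, 6.95 and 7.88 with Bic/4AP. Its groups did not overlap, with a rise with TTX (0.63, SE 0.093, limma adjusted p = 3.08e-05), a fall with Bic/4AP (-0.72, SE 0.093, limma adjusted p = 6.06e-06) and a 3.31-fold difference between the treatments (-1.27, SE 0.093, limma adjusted p = 3.79e-08). Ephb1 was at 7, 8.49 and 7.88 RPKM untreated, 11.4, 10.8 and 8.88 with TTX and 5.68, 5.37 and 5.68 with Bic/4AP. The same order held without overlap, but the calls with Bic/4AP (-0.29, limma adjusted p = 0.00786) and with TTX (0.23, limma adjusted p = 0.0186) were lost under both other scalings, and the latter without untreated library 1 or TTX library 1 or 2, adjusted p from 0.0734 to 0.0883. Ephb3 was at 2.18, 2.61 and 2.98 RPKM untreated, 3.76, 4.13 and 2.77 with TTX and 1.76, 2 and 1.61 with Bic/4AP. No call was made against untreated with Bic/4AP (-0.24, limma adjusted p = 0.0626) or TTX (0.20, limma adjusted p = 0.089), although TTX gave one with quantile normalization and without TTX library 3, adjusted p = 0.0317 and Bic/4AP one without untreated library 1 or TTX library 3, adjusted p from 0.0442 to 0.0473. Epha1, at 0.174 ± 0.124 RPKM untreated, 0.12 ± 0.0119 with TTX and 0.1 ± 0.109 with Bic/4AP, and Ephb4, at 0.788 ± 0.153 RPKM untreated, 0.827 ± 0.35 with TTX and 0.391 ± 0.0699 with Bic/4AP, were not tested.

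Read without overlap between untreated and treated libraries, 15 guidance genes were highest untreated, which is 23.4% of the 64 beside 16.8% of all genes tested. In this class, and in that lying below both treatments, the treatments could overlap with each other. The 15 were Robo3, Ntn5, Slit1, Slit3, Sema3b, Sema3f, Sema4b, Sema5b, Plxna4, Plxnb2, Epha4, Epha6, Epha7, Epha10 and Ephb6. Among them Robo3 and Ntn5 had passed the filter through the untreated libraries alone, and Sema3b would not have passed without them. The order TTX, untreated, Bic/4AP without overlap of any groups was seen for 14 genes, 21.9% beside 15.4%, and the reverse order for Epha5 and Unc5c alone, 3.12% beside 6.32%. Untreated lay below both treatments for 6, namely Efnb2, Efnb3, Epha2, Ntn1, Sema3e and Sema4c, which is 9.38% beside 11.5%. All these orders were read on the deposited scale only. Of the 14, a direction against untreated turned under another scaling for Robo1, Ephb1, Ntn3, Plxna3, Sema4d, Sema4f and Sema6c. The same held for Epha5 with Bic/4AP and for Efnb3 with TTX.

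The size of a difference with Bic/4AP varied with the level of a gene across the whole transcriptome. When all genes were sorted by mean RPKM into 10 classes, the unshifted median log2 difference between Bic/4AP and untreated went from -0.55 in the third class to 0.45 in the top class. Guidance genes called higher with Bic/4AP had a median level of 23.6 RPKM and a median length of 6861 bases, and those called lower 12.5 RPKM and 4690 bases. Set against the median of their own class, 16 of the 17 called higher and 31 of the 32 called lower lay on the same side of it as of 0, some of them close to it, such as Ntn3 and Plxna3 at -0.020 and -0.030. The counts were 26 of 26 and 18 of 18 for TTX against untreated and 16 of 16 and 33 of 36 for Bic/4AP against TTX. Because these genes were chosen by their call against 0, this agreement in side was largely set beforehand. The share over all called genes was not computed. The part of the level in the calls was not tested.

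Of 79 other genes that act downstream of these receptors or beside them, such as kinases, actin regulators, collapsin response mediators and other guidance proteins, 78 were tested. With Bic/4AP 33 were higher and 27 lower than untreated (27 and 28 with quantile normalization, 24 and 33 with cyclic loess), beside 29.6% and 42.5% of all genes. With TTX the counts were again 33 and 27 (27 and 33, 25 and 34), beside 40.6% and 23.5%. Ranks below are by the log2(RPKM + 1) difference among genes that passed and reached 5 RPKM in a group, and some genes are not reported. Cdk5r2, an activator of the kinase Cdk5, and Rgmb, a ligand of neogenin, were among the largest rises with Bic/4AP, the former at 26.7 ± 1.66 RPKM untreated, 40.8 ± 2.04 with TTX and 45.1 ± 2.54 with Bic/4AP (relative log2 difference 0.86, SE 0.063, limma adjusted p = 7.45e-07). Rgmb was at 33.7 ± 2.44 RPKM untreated, 38.9 ± 2.42 with TTX and 55.8 ± 0.358 with Bic/4AP (relative log2 difference 0.83, SE 0.062, limma adjusted p = 8.35e-07). Cfl1, the actin-severing protein cofilin, was called higher at 93.9 ± 9.72 RPKM untreated, 93.2 ± 4.6 with TTX and 160.00 ± 3.18 with Bic/4AP (relative log2 difference 0.89, SE 0.076, limma adjusted p = 2.54e-06), but not with cyclic loess.

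Falls with Bic/4AP were led by Ssh3, a phosphatase that activates cofilin, at 24.3 ± 5.43 RPKM untreated, 1.95 ± 0.382 with TTX and 1.25 ± 0.403 with Bic/4AP (relative log2 difference -3.36, SE 0.19, limma adjusted p = 2.16e-08). The Rac regulator Sh3bp1 was at 22.4 ± 4.96 RPKM untreated, 6.58 ± 0.473 with TTX and 2.62 ± 0.369 with Bic/4AP (relative log2 difference -2.55, SE 0.15, limma adjusted p = 2.78e-08). Mical3, of the family of oxidases that act below plexins, was at 28.3 ± 3.24 RPKM untreated, 14.7 ± 1.14 with TTX and 6.12 ± 0.636 with Bic/4AP (relative log2 difference -1.92, SE 0.10, limma adjusted p = 1.3e-08). Ntng1, a membrane-anchored netrin relative, was at 9.99 ± 1.06 RPKM untreated, 2.91 ± 0.438 with TTX and 2.48 ± 0.196 with Bic/4AP (relative log2 difference -1.53, SE 0.14, limma adjusted p = 7.1e-07). Of these, Ssh3, Sh3bp1 and Ntng1 were also among the 4 largest falls with TTX, with relative log2 differences of -3.22, -1.74 and -1.62, against the same untreated libraries. The kinase Rock1 completed them at 17.8 ± 2.27 RPKM untreated, 8.6 ± 0.373 with TTX and 8.83 ± 0.902 with Bic/4AP (relative log2 difference -1.10, SE 0.11, limma adjusted p = 1.48e-05).

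Rises with TTX were led by Rgma, a repellent that binds neogenin, at 9.02 ± 3.38 RPKM untreated, 23.6 ± 0.865 with TTX and 12.3 ± 0.909 with Bic/4AP (relative log2 difference 1.22, SE 0.17, limma adjusted p = 4.5e-05). Lrig1, a membrane regulator of growth factor receptors, was at 2.85 ± 0.76 RPKM untreated, 8.22 ± 0.954 with TTX and 4.6 ± 0.097 with Bic/4AP (relative log2 difference 1.14, SE 0.16, limma adjusted p = 3.17e-05). Vav2, an exchange factor that Eph receptors recruit, was at 6.68 ± 0.317 RPKM untreated, 16.5 ± 0.8 with TTX and 3.15 ± 0.434 with Bic/4AP (relative log2 difference 1.05, SE 0.11, limma adjusted p = 5.99e-06). Between Bic/4AP and TTX, Vav2 also showed the largest fall, with a relative log2 difference of -1.74, ahead of the cofilin phosphatase Ssh1, the adhesion protein Cntn2 and the netrin antagonist Draxin (-1.33, -0.95 and -0.82). The GTPases Rac1 and Cdc42, the kinase Pak3 and the Sema3a effector Dpysl2 were the largest rises there (1.29, 1.28, 1.21 and 1.18), Dpysl2 without a call under cyclic loess.

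H3K27ac peaks were compared by presence in the authors' lists, which differ in length: 4846 and 49701 peaks in the first and second untreated lists and 7721 and 55035 in the Bic/4AP lists. Of the 54 tested guidance genes with a RefSeq start in the reference used, 7 and 26 had a peak within 1 kb of it in the untreated lists, beside 15.1% and 44.1% of all such genes. In the Bic/4AP lists 9 and 27 did, beside 32.6% and 57.1%. The shares of the guidance genes were 13.0%, 48.1%, 16.7% and 50%. Efnb2 had a peak at its start in the second untreated list and in both Bic/4AP lists, and Epha5, Efna3, Unc5c and Plxna2 in all 4 lists. Sema3a, Sema3c, Robo3 and Ntn5 had none in any, but the Sema3a start used lies inside the gene. H3K4me1 peaks lay at the starts of 1 and 3 guidance genes in its 2 lists, beside 1.45% and 1.46% of all genes.

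Peaks were also counted along whole gene spans, here always with 10 kb added on each side. The second Bic/4AP list held 568 peaks in these spans of the 64 genes. Of them, 281 (49.5%) overlapped no peak of either untreated list, beside 51.0% of all peaks of the Bic/4AP list and 52.1% of those within spans of genes tested. The second untreated list held 489, of which 198 (40.5%) overlapped no Bic/4AP peak, beside 43.5% of all its peaks and 35.7% of those within spans of genes tested. Genes differed widely in these second lists. Plxna4 had 47 peaks seen only with Bic/4AP and 4 seen only untreated, Plxna2 had 29 and 3, Nrp1 had 28 and 7, and Unc5c had 24 and 2. Others had many of both kinds, with 35 and 20 for Dcc, 20 and 19 for Epha6 and 18 and 18 for Slit3. Slit1 had 0 seen only with Bic/4AP and 11 seen only untreated, and Ephb2 had 0 and 10. Plxna4 and Plxna2 were lower in RNA with Bic/4AP and Unc5c higher, so genes with many peaks in the Bic/4AP list alone lay on both sides. With 2 lists per state of unequal length these counts carry no test.

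A region in both untreated lists and in neither Bic/4AP list, within a gene or 10 kb of it, was found for 1 guidance gene, Sema7a, beside 0.567% of all 13924 genes. It lies at chr9:57931927-57934219, outside the annotated span and 7.04 kb from the nearest start. The reverse, a region in both Bic/4AP lists and in neither untreated list, was found for 0 of the 64 genes, beside 7.43% of all genes.

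CpG methylation around the starts was low for most guidance genes and differed little between the 3 libraries. Within 1 kb of the start, 53 genes had 10 or more CpGs listed, and their median methylation came to 3.34% in the untreated library, 3.43% in the TTX library and 3.50% in the Bic/4AP library, beside 6.53%, 6.62% and 6.5% over all genes measured. Under 10% methylation was seen for 42 of the 53 untreated (79.2%), beside 64.8% of all genes. With 1 library per treatment and no coverage in the files there is no test and no interval.

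Highest were Sema4d, at 78.4% untreated, 78.4% with TTX and 77.5% with Bic/4AP, Ntn5, at 61.2% untreated, 59.8% with TTX and 62.2% with Bic/4AP, and Sema4a, at 50.3% untreated, 53.1% with TTX and 54% with Bic/4AP. Sema6d, Sema6c, Plxna3, Robo2, Efna4, Ntn3, Sema3e and Sema5a followed, between 10.3% and 22.5% untreated. Lowest were Epha4, Plxna2 and Nrp1, at 0.411%, 0.462% and 0.49% untreated. Differences from the untreated library ran from -6.37 points (Plxna3) to 3.11 points (Sema3e) with TTX and from -2.19 points (Plxna3) to 3.73 points (Sema4a) with Bic/4AP, and 1 of the 53 with TTX and 0 with Bic/4AP were beyond 5 points. Ntn5 was highly methylated in all 3 libraries. Its RNA was at 5.42 to 8.48 RPKM untreated and near 0 in every treated library. The methylation libraries came from another strain, and a relation between the RNA and methylation of Ntn5 was not tested.

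In the 250 bases printed above, the 27 CpGs of Efnb2 had a mean methylation of 0.309% untreated, 0.679% with TTX and 0.424% with Bic/4AP, and those listed for Ephb2 1.53%, 0% and 2.01%. The 2 CpGs of Ntn5 were at 88.8%, 74.4% and 84.9%. Sema3a, with 4 CpGs listed within 1 kb in the untreated library, was below the minimum of 10 and is left out of the counts. Its mean there, over so few sites, stood at 82.5% in the untreated library, 93.3% in the TTX library and 91.8% in the Bic/4AP library. The Sema3a start used lies inside the gene, so these values do not describe its 5′ end.

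The same 250 bases were searched on both strands for 2 motifs of activity-regulated factors. The cAMP response element TGACGTCA was present in 1 of the 54 guidance genes with a start, Epha2, beside 3.06% of all genes. The AP-1 motif TGANTCA was present in 3, Sema4c, Sema4d and Sema6b (5.56%), beside 5.34% of all genes. The shorter TGACG, which lies within the first motif, was found in 7 (13.0%), Efnb2 and Unc5c among them, beside 29.9%.

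**Figure D4:**
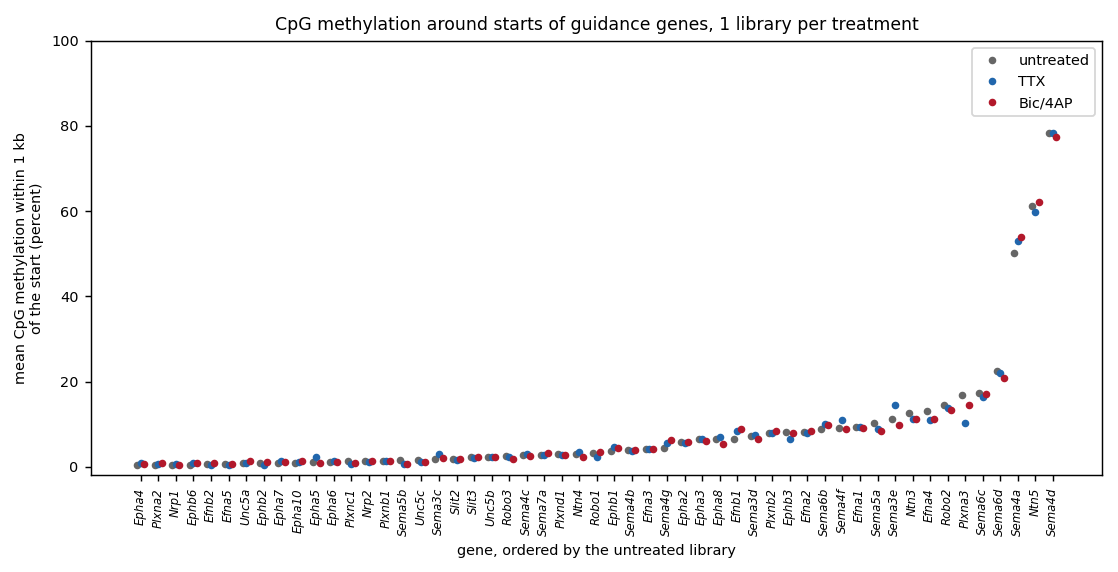
Mean CpG methylation within 1 kb of the start for the 53 guidance genes with 10 or more CpGs listed, ordered by the untreated library; grey, blue and red points are the untreated, TTX and Bic/4AP libraries, 1 each. Most genes lie below 10%, Sema4a, Ntn5 and Sema4d lie between 50.3% and 78.4%, and the 3 points of a gene lie close together.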

How the data were processed

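RNA values are the deposited RPKM, made by the authors per gene and library; MACS 1.4.1, SAMtools 0.1.19, Bowtie2 2.2.4, TopHat and the build mm10 are named per the submitters' processing notes. Poly(A) RNA and a directional kit were used, per the labels' protocols; the sources used here do not give whether counting considered strand or duplicates. CpG values are the authors' fraction from 0 to 1 per site, without coverage, so their depth is unknown. Peak lists hold the authors' score per peak, used only within a list.

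Members, gene lists, named genes and alternatives were chosen with earlier results of these data known. Genes with 1 RPKM in 3 of 9 libraries were tested with limma 3.58.1 under R 4.3.3 on log2(RPKM + 1), the prior variance following mean intensity, all 9 libraries in 1 fit with 6 residual degrees of freedom, and Benjamini-Hochberg adjustment at 0.05 over 14801 genes. The scale understates changes of low genes. Relative log2 differences have the median of all genes subtracted. Folds of single genes are ratios of group mean RPKM, to which neither the SE nor the p-value belongs. Of 24062 lines in each file, 4 with repeated names were left out, and 0 columns belong to other samples. Library sizes were recovered from the steps of the RPKM values, and the reads of all 69 members came out whole within 0.02 of a read plus a small relative tolerance. Named genes passed with a log2 change of 0.8, 5 RPKM in a group and no overlap, or had the highest mean of a family, or belonged to 24 named in any case. Starts came from RefSeq (GRCm38.p6), where 59 of 69 members matched; 10 members, with no start here, were left out of peak, methylation and sequence counts at starts. Gene spans came from the RefSeq gene table. The fit was tested on simulated data. Results of some downstream genes are not reported here. Alternatives were a pseudocount of 0.1, no filter, quantile and cyclic loess normalization, only the groups compared, the replicate block, each library left out, peaks with a score of 100 or a start within 100 bp, and methylation within 500 bp or over 20 CpGs.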

Additional observations from a re-analysis of the deposited data

How the results depend on the processing

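Counts of guidance genes stayed within 1.5 times of the reported ones in the 15 settings, except that cyclic loess normalization gave 16 genes higher with TTX in place of 26. Without 1 library, Bic/4AP against untreated gave 14 to 20 higher and 31 to 34 lower, TTX against untreated 20 to 27 and 14 to 19, and Bic/4AP against TTX 15 to 16 and 36 to 37. Same-numbered libraries did not deviate together (correlations of -0.17 to 0.04), and with the number as a replicate block the counts were 16 and 32, 24 and 18, and 16 and 37. The same call in every setting was kept by 12 of 17, 26 of 32, 16 of 26, 14 of 18, 14 of 16 and 26 of 36.

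Directions turned under another scaling for 8, 14 and 9 of the 64 genes in the 3 comparisons; those with a call in either setting follow, and the cause was not tested. With quantile normalization the unshifted log2 difference of Bic/4AP minus untreated became 0.35 for Efna3, -0.056 for Epha5, 0.19 for Ephb1, 0.21 for Ntn3, 0.17 for Robo1 and 0.57 for Sema3d, that of TTX minus untreated -0.21 for Sema3c, and that of Bic/4AP minus TTX 0.45 for Ntn1, 0.36 for Plxnc1 and 0.23 for Robo1. With cyclic loess, Bic/4AP minus untreated became 0.26 for Efna3, -0.034 for Epha5, 0.10 for Ephb1, 0.064 for Ntn3 and 0.17 for Robo1, TTX minus untreated -0.023 for Plxna3, -0.28 for Sema3a and -0.033 for Sema6c, and Bic/4AP minus TTX 0.068 for Ephb1, 0.43 for Plxnc1 and 0.31 for Robo1.

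In the first untreated H3K27ac list, 1 gene in place of 7 had a peak of score 100 or more at its start, and 2 had one within 100 bp. Median methylation within 500 bp came to 1.10% in the untreated library, 1.26% in the TTX library and 1.17% in the Bic/4AP library. Bic/4AP libraries were the shallowest, so a single read of a 1 kb gene came to 0.218 to 0.23 RPKM there and 0.0791 to 0.103 with TTX.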
